A study of Mus musculus with 45 samples.

Results

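5430416N02Rik is a long intergenic non-coding RNA gene of mouse chromosome 5, and its neighbors Sec31a, Lin54, Cops4, Plac8, Coq2, Hpse and Enoph1 are protein-coding genes that start within 0.4 Mb of it. These genes and Scd5 were looked for by their symbols, 9 symbols in all, among the 33924 genes listed in each of 2 RNA-seq tables. Scd5 matched no row, and no gene of that symbol is listed in the mouse GENCODE and RefSeq annotations used here. It was not analysed, so that 8 genes, 5430416N02Rik and 7 neighbors, were measured in both tables. RNA was sequenced from 24 samples of D3 mouse embryonic stem cells (ESCs) in 8 groups of 3 biological replicates. In ΔPG cells the gene body of 5430416N02Rik and its promoter were replaced by a PGK-puro cassette, which carries its own promoter and a puromycin resistance gene. In ΔG cells the gene body alone was replaced by a GFP-IRES-Puro cassette, so that the promoter was left in place. Heterozygous (He) cells carried the cassette on 1 allele and homozygous (Ho) cells on both, so every sample had lost at least 1 copy of the gene, and no wild-type RNA-seq library was compared. For 48 h the cells of both genotypes received either DMSO (ES) or retinoic acid at 2 µM (RA), a signal that drives ESCs out of the undifferentiated state. Each genotype of a line was represented by a single clone, so clone and genotype cannot be told apart. Contacts of the 5430416N02Rik promoter were measured by 4C-seq in 2 replicates of mouse ESCs.

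A long non-coding RNA gene can act on the genes around it through its transcript, through the act of being transcribed, or through DNA elements in its promoter. Deleting the transcript with or without the promoter and then measuring the neighboring genes is the usual way to ask which of these matters. The neighbors themselves are unrelated in function. Lin54 encodes the DNA-binding subunit of the MuvB core, which represses or activates cell cycle genes. Sec31a encodes an outer coat protein of the COPII vesicles that leave the endoplasmic reticulum, and Cops4 a subunit of the COP9 signalosome, which removes NEDD8 from cullin ubiquitin ligases. Enoph1 encodes an enzyme of methionine salvage, Coq2 the prenyltransferase of coenzyme Q synthesis, Hpse the enzyme heparanase, which cuts heparan sulfate, and Plac8 a small cysteine-rich protein first described in placenta.

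5430416N02Rik (ENSMUSG00000084877.1) lies on the minus strand of NCBIM37 at chr5:100849861-100858535, and GENCODE gives it 1 transcript of 5 exons and 1 of 3 exons. Its nearest neighbor, Sec31a (ENSMUSG00000035325.8, chr5:100790669-100845253, minus strand), ends 4.6 kb away on the side of lower positions, beyond the last exon of 5430416N02Rik. Lin54 (ENSMUSG00000035310.8, chr5:100870937-100929658, minus strand) lies 12.4 kb away on the promoter side, with its own start at 71.1 kb. On the same side follow the starts of Cops4 (ENSMUSG00000035297.8, chr5:100947328-100976822, plus strand) at 88.8 kb, Plac8 (ENSMUSG00000029322.6, chr5:100982744-101001264, minus strand) at 142.7 kb, Coq2 (ENSMUSG00000029319.7, chr5:101083742-101104159, minus strand) at 245.6 kb and Hpse (ENSMUSG00000035273.8, chr5:101108503-101148735, minus strand) at 290.2 kb. Enoph1 (ENSMUSG00000029326.7, chr5:100469013-100497781, plus strand) starts 389.5 kb away on the Sec31a side. None of these genes overlaps 5430416N02Rik, and reads were counted by strand.

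The deleted promoter and the promoters of the 2 neighbors that moved with RA in every clone are given as in RefSeq on GRCm38.p6, from 250 bases before to 50 bases after the start and read in the direction of transcription. The capitals mark CCAAT on either strand (CCAAT or ATTGG), a frequent promoter element. The first stretch lies at chr5:100429486-100429785 (minus strand), the Enoph1 stretch at chr5:100039744-100040043 (plus strand) and the Plac8 stretch at chr5:100572156-100572455 (minus strand).
5430416N02Rik: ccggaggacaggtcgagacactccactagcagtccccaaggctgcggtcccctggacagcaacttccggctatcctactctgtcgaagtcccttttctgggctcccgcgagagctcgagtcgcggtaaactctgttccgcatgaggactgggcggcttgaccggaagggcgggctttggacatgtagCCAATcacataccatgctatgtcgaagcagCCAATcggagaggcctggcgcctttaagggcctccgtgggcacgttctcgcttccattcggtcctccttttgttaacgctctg
Enoph1: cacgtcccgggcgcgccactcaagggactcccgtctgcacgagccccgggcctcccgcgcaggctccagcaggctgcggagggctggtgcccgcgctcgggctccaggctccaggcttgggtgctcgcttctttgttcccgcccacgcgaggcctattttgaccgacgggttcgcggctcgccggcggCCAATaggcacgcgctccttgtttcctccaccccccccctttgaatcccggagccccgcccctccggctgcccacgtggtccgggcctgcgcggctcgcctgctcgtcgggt
Plac8: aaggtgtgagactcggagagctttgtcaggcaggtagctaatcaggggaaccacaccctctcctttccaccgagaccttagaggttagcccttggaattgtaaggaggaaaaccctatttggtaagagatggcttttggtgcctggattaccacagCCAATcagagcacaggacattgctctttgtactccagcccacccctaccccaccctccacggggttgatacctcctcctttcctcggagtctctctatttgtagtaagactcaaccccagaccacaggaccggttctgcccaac
The 5430416N02Rik promoter held CCAAT at positions -63 and -33 from the start, the Enoph1 promoter at -62 and the Plac8 promoter at -94. CCAAT on either strand was found in 37.4% of the 32851 RefSeq promoters of this length. TTTGAA or its reverse complement TTCAAA, the cell cycle element that LIN54 binds, was found in 17.9% of them, in a promoter of Lin54, Enoph1 and Hpse, and not in that of 5430416N02Rik. Matches of the 2 motifs were counted independently of each other.

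The marker genes followed the ES and RA labels. Of 8 markers of undifferentiated ESCs, 7 were measured, with group means of 8.38 to 12.41 in ES samples, and all 7 fell with RA in each of the 4 clones, whereas all 6 RA response markers rose. Between genotypes, Pou5f1 was called lower in homozygous ΔPG ESCs (-0.52, limma adjusted p = 1.77e-06). In homozygous ΔPG cells under RA, Klf4 was called lower (-0.61) and Hoxb1 higher (0.57). In ΔG cells 0 of the 7 and 0 of the 6 were called between genotypes (limma, 1 to 3 with an unadjusted p under 0.05). The paper reports culture of the D3 cells without a feeder layer. The 6 fibroblast markers, for feeder cells, had group means of 0.70 to 3.76 in ES samples, and 0 of them were called between genotypes there (limma, 0 with an unadjusted p under 0.05 in each line). All values are regularized log (rlog) values, a log2 scale on which genes with few reads are drawn toward their mean over the samples, so differences of weakly expressed genes are understated. Sequencing depth cannot be read from rlog values, levels are not per length, and both tables were normalized separately, so a gene was compared only within a table. A gene was called at a limma adjusted p under 0.1 over all genes that varied and an absolute log2 difference over 0.5. In homozygous ΔPG ESCs the differences of all genes followed exonic GC content (Pearson's r = -0.705 across 11904 genes, which are not independent replicates), and in the other comparisons between samples r lay between -0.208 and 0.135. For ΔPG ESCs, differences are therefore also given after subtracting the GC trend of every sample, for genes whose mean rlog value was 3 or more. The mean of Trp53, which encodes p53, was 7.05 ± 0.10 (SD, n = 3) in ΔPG ESCs with 1 deleted allele and 4.02 ± 0.21 (SD, n = 3) in those with both deleted, and at group means of 2.28 to 2.62 in the ΔG table. Its part in the differences of the chromosome 5 genes was not tested.

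5430416N02Rik fell in homozygous cells of both lines, in ES and under RA. In ΔPG ESCs its rlog values were 4.62, 4.58 and 4.59 in the heterozygous samples and 2.23, 2.21 and 2.46 in the homozygous samples. Under RA the ΔPG values were 4.24, 3.80 and 4.44 against 2.66, 2.12 and 2.28. In ΔG ESCs they were 5.58, 5.54 and 5.50 against 2.63, 2.77 and 2.85, and under RA 5.64, 5.52 and 5.58 against 2.63, 3.08 and 2.77. Every homozygous sample was more than 1 log2 unit below every heterozygous sample of its table. The change between genotypes was -2.30 on the log2 scale in ΔPG ESCs (standard error 0.118, limma adjusted p = 5.95e-06) and -1.81 in ΔPG cells under RA (standard error 0.208, limma adjusted p = 0.00103). In ΔG cells it was -2.79 in ES (standard error 0.0932, limma adjusted p = 3.64e-05) and -2.75 under RA (standard error 0.141, limma adjusted p = 2.77e-11). With 3 against 3 samples, an exact permutation test (two-sided) cannot go below p = 0.1, which it gave in each of the 4 comparisons. Since the gene body is absent from both alleles and rlog values do not reach 0 for a gene that has reads in other samples, the homozygous values cannot be read as transcript that was left.

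**Figure D1:**
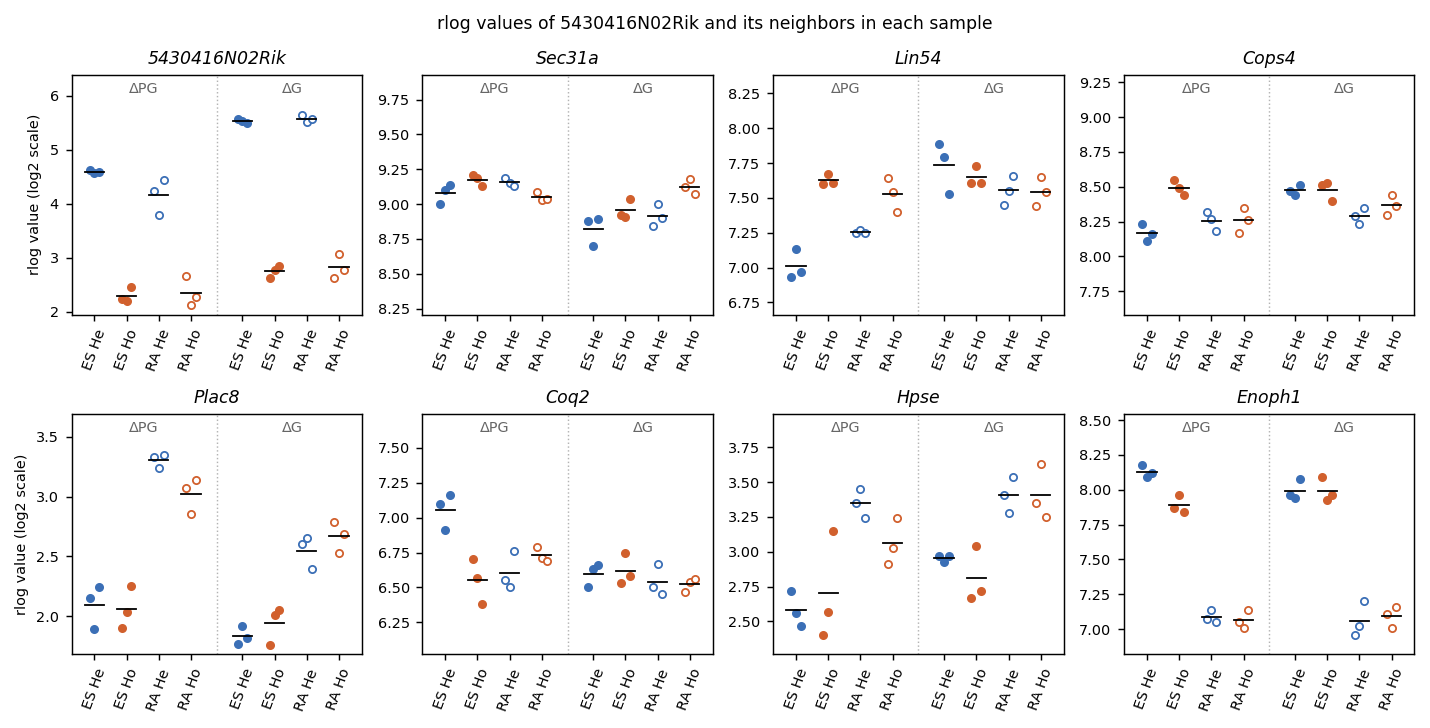
rlog values (log2 scale, a separate axis for each gene) of the 8 measured genes in each sample, with ΔPG samples on the left and ΔG samples on the right of each panel. Points are samples (blue, heterozygous; orange, homozygous; filled, ES; open, RA) and lines are means of 3 samples; the 5430416N02Rik points of homozygous samples lie between 2.12 and 3.08, below all heterozygous points, whereas the genotypes lie close together for Sec31a and for all 7 neighbors in ΔG cells.

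Between ES and RA, 5430416N02Rik was not called in any of the 4 clones. Its group means were 4.60 ± 0.02 (SD, n = 3) in ES and 4.16 ± 0.33 (SD, n = 3) under RA in heterozygous ΔPG cells, and 5.54 ± 0.04 (SD, n = 3) and 5.58 ± 0.06 (SD, n = 3) in heterozygous ΔG cells. The ΔPG difference of -0.44 (95% interval -0.82 to -0.05, limma adjusted p = 0.0604) was under the limit of 0.5 and was past it with the GC trend removed (-0.51, limma adjusted p = 0.00143) and after quantile normalization (-0.78, limma adjusted p = 0.0121). In heterozygous ΔG cells the difference was 0.04 (95% interval -0.16 to 0.24). In homozygous cells, which lack the gene body, the differences were 0.05 (ΔPG) and 0.08 (ΔG). Quantile normalization turned these directions as well, to -0.20 in heterozygous ΔG (limma adjusted p = 0.0235), -0.25 in homozygous ΔPG and -0.22 in homozygous ΔG cells, none of them called. Whether the RA response differed between the lines was not tested, since their tables were normalized separately.

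The neighbors were then compared between genotypes. In homozygous ΔPG ESCs, Lin54 rose and Coq2 fell, and the other 5 measured neighbors were not called (limma). The 2 called neighbors of 7 stand against 13.2% of all 21979 genes tested in that comparison. The median log2 difference of the 7 was 0.09, and that of all genes 0.00. The neighbor nearest to the deletion, Sec31a, was not called in any of the 4 comparisons.

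Lin54 had rlog values of 6.93, 7.13 and 6.97 in heterozygous and 7.60, 7.67 and 7.61 in homozygous ΔPG ESCs. All 3 homozygous samples were above all heterozygous samples, by 0.62 (standard error 0.0608, limma adjusted p = 0.000144). Lin54 has the lowest exonic GC content of the 8 genes, at 41.9%. With the GC trend removed its difference was 0.17 (standard error 0.0669, limma adjusted p = 0.0347), which is no longer called. Under RA, the ΔPG values were 7.25, 7.27 and 7.25 against 7.64, 7.54 and 7.40, again without overlap, a difference of 0.27 (95% interval 0.12 to 0.42, limma adjusted p = 0.0616), under the limit of 0.5. In ΔG ESCs Lin54 was at 7.89, 7.79 and 7.53 against 7.61, 7.73 and 7.61, so that the genotypes overlapped, and the difference was -0.08 (95% interval -0.31 to 0.14). In ΔG cells under RA it was -0.01 (95% interval -0.17 to 0.16).

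Coq2 had rlog values of 7.10, 6.91 and 7.16 in heterozygous and 6.70, 6.57 and 6.38 in homozygous ΔPG ESCs. The genotypes did not overlap and differed by -0.50 (standard error 0.0987, limma adjusted p = 0.00547), which is just past the limit. Coq2 has the highest exonic GC content of the 8 genes, at 52.5%, and was at -0.31 with the GC trend removed (standard error 0.0874, limma adjusted p = 0.00484). Its call was lost without heterozygous replicate 1 (-0.48), heterozygous replicate 3 (-0.45) or homozygous replicate 3 (-0.42), and after quantile normalization (-0.47). With RA, the heterozygous ΔPG samples were at 6.55, 6.50 and 6.76 and the homozygous ones at 6.79, 6.71 and 6.69, which overlap. The genotype difference under RA minus that in ES was 0.63 (standard error 0.132, limma adjusted p = 0.00258), and the homozygous mean was below the heterozygous mean in ES and above it under RA. Without the GC trend this was 0.44 (limma adjusted p = 0.0114). In ΔG cells the Coq2 difference was 0.03 in ES (95% interval -0.17 to 0.22) and -0.02 under RA (95% interval -0.21 to 0.18).

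Sec31a, whose start lies 13.3 kb from that of 5430416N02Rik, had rlog values of 9.0, 9.10 and 9.14 in heterozygous and 9.21, 9.19 and 9.13 in homozygous ΔPG ESCs, a difference of 0.09 (95% interval -0.01 to 0.19, limma adjusted p = 0.165). Removal of the GC trend gave 0.27 (standard error 0.0405, limma adjusted p = 8.79e-07), which does not reach 0.5. In ΔG ESCs the values were 8.88, 8.70 and 8.89 against 8.92, 8.91 and 9.04, a difference of 0.14 (95% interval -0.01 to 0.29). Under RA, Sec31a was higher in homozygous ΔG cells by 0.21 (95% interval 0.10 to 0.33, limma adjusted p = 0.0213) and lower in homozygous ΔPG cells by a log2 difference of -0.10 (95% interval -0.18 to -0.03, limma adjusted p = 0.191). In both lines the genotypes did not overlap under RA, and neither difference was called.

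Of the other neighbors in ΔPG ESCs, Cops4 was higher by 0.32 (standard error 0.0460, limma adjusted p = 0.001) and Enoph1 lower, with a difference of -0.24 (standard error 0.0470, limma adjusted p = 0.00551). Neither reached the limit of 0.5, although their genotypes did not overlap. In ΔPG ESCs this was so for 4 of the 7 neighbors, beside 39.6% of all genes. With the GC trend removed, Cops4 was at 0.22 and Enoph1 at -0.12. Plac8, at -0.03 (95% interval -0.37 to 0.31), and Hpse, at 0.12 (95% interval -0.35 to 0.59), had wider intervals, and both are low, with values over the 12 ΔPG samples of 1.89 to 3.35 for Plac8 and 2.40 to 3.45 for Hpse. Both have mean rlog values under 3 in the ΔPG table, so no value with the GC trend removed was computed for them there. With the trend removed, 0 of the 5 neighbors that could be fitted were called in ΔPG ESCs, against 7.28% of the 11904 genes tested in this way. All 5 had limma adjusted p-values under the limit, from 8.79e-07 for Sec31a to 0.0802 for Enoph1, at differences of -0.31 to 0.27, short of 0.5. In the fit of the values as deposited, 4 of the 7 had an unadjusted p under 0.05.

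**Figure D2:**
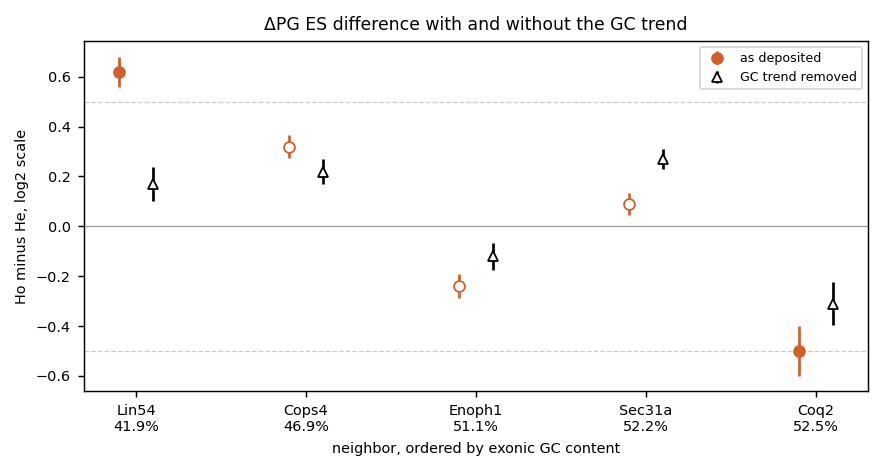
Homozygous minus heterozygous log2 difference in ΔPG ESCs for the 5 neighbors whose mean rlog value reached 3, ordered by exonic GC content, as deposited (circles; filled, called) and with the GC trend removed (triangles). Bars are standard errors and dashed lines the limit of 0.5; Lin54 and Coq2, at both ends of the GC order, lie past it as deposited and inside it with the trend removed.

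In the 3 other genotype comparisons no neighbor was called. In ΔPG cells under RA 0 of 7 were called against 0.846% of all genes (limma), and 2 had an unadjusted p under 0.05. In ΔG ESCs 0 of 7 were called against 0.984%, and 0 had an unadjusted p under 0.05. In ΔG cells under RA 0 of 7 were called against 2.14%, and 1, Sec31a, had an unadjusted p under 0.05. With so few calls over all genes, a count of 0 among 7 does not set the neighbors apart. In ΔPG RA, ΔG ES and ΔG RA the genotypes did not overlap for 4, 1 and 1 of the 7 neighbors. Over all genes the share without overlap was 18.8%, 17.8% and 21.8%. The differences were small in size: in ΔG ESCs they ran from -0.15 to 0.14, and in ΔG cells under RA from -0.02 to 0.21. In ΔPG cells under RA they ran from -0.29 to 0.27, with Lin54 the highest. The lowest were Plac8 and Hpse (-0.29 each), with limma adjusted p-values of 0.434 and 0.464, in which the homozygous samples did not overlap the heterozygous ones. In the same samples 4 of 6 extraembryonic endoderm markers were called lower in homozygous cells (Lama1, Gata4, Dab2 and Sox17, from -0.95 to -0.50). In ΔG cells under RA 2 of 6 were called lower, Lama1 (-1.03) and Dab2 (-0.70), and the others ran from -0.48 to 0.31. Of the 6 fibroblast markers 1 was called there, Col1a2 (-1.41), and the others ran from -0.35 to 0.17. Col1a2 was at 0.23 in ΔPG cells under RA, not called. In ΔG cells under RA Plac8 was at 0.13 and Hpse at -0.00, neither of them called. The part of cells with endoderm or fibroblast markers in the values of Plac8 and Hpse was not tested.

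**Figure D3:**
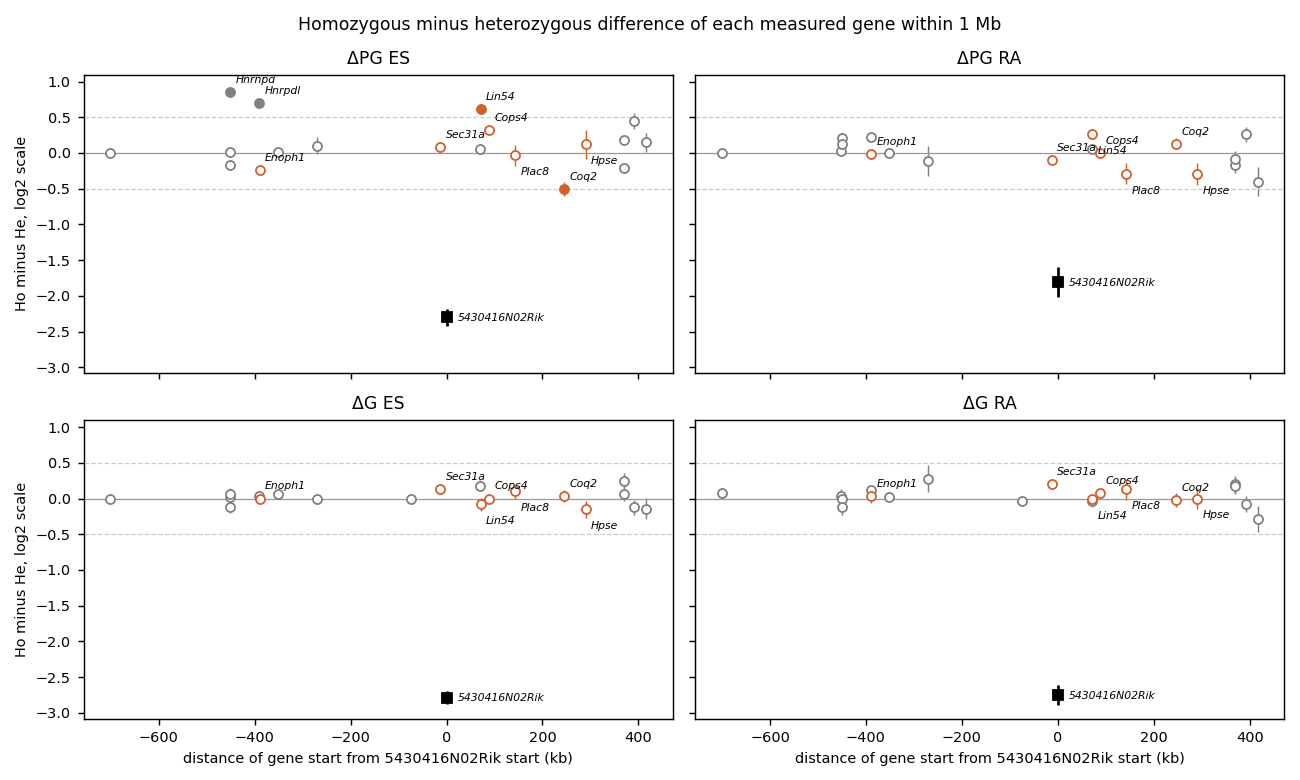
Homozygous minus heterozygous log2 difference of each measured gene that starts within 1 Mb of 5430416N02Rik (square), against the distance between the starts in kb (negative, lower positions). Orange circles are the named neighbors, grey circles other genes, filled circles called genes and bars standard errors; past the limit of 0.5 (dashed lines) lie 4 neighboring genes in ΔPG ESCs and 0 in the other panels.

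The count was extended to every gene that starts within 1 Mb, 30 genes in GENCODE besides 5430416N02Rik. In ΔPG ESCs 4 of the 19 that varied were called (21.1%, against 13.2% of all genes), 3 higher and 1 lower, and these were Hnrnpd, Hnrpdl, Lin54 and Coq2. Hnrnpd, which encodes an RNA-binding protein of AU-rich elements, starts 450.6 kb away and differed by 0.86 (standard error 0.0488, limma adjusted p = 9.45e-06), and by 0.45 with the GC trend removed. Its relative Hnrpdl starts 389.9 kb away, head to head with Enoph1, and differed by 0.70 (standard error 0.0382, limma adjusted p = 8.03e-06). After removal of the GC trend Hnrpdl was still called (0.59), as the only 1 of the 10 genes that could be fitted, against 7.28% of all genes so fitted. Both lie farther away than Sec31a, Cops4, Plac8 and Hpse, which were not called, and than Lin54 and Coq2, which were. A relation with distance was not tested. In ΔPG cells under RA 0 of 19 were called, against 0.846% of all genes (limma, 5 with an unadjusted p under 0.05). In ΔG cells 0 of 20 were called in ES, against 0.984%, and 0 of 20 under RA, against 2.14% (limma, 2 with an unadjusted p under 0.05 in each).

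The neighbors were also compared between ES and RA samples of the same clone. Enoph1 fell and Plac8 rose in each of the 4 clones, Hpse rose in 2 of them, and Sec31a, Lin54, Cops4 and Coq2 were not called in any (limma). In heterozygous ΔPG cells 3 of 7 neighbors were called against 31.6% of all genes, in homozygous ΔPG cells 2 against 27.8%, in heterozygous ΔG cells 2 against 29.5%, and in homozygous ΔG cells 3 against 29.2%. The shares of the neighbors are thus near those of all genes. In the same order, ES and RA samples did not overlap for 5, 4, 4 and 4 of the 7 neighbors. Over all genes the share without overlap was 56.1%, 52.7%, 54.5% and 52.6%.

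Enoph1 was at 8.18, 8.09 and 8.12 in heterozygous ΔPG ESCs and at 7.07, 7.14 and 7.05 under RA, which is a change of -1.04 (standard error 0.0417, limma adjusted p = 6.49e-07). In homozygous ΔPG cells it was at 7.87, 7.96 and 7.84 and then at 7.05, 7.01 and 7.14. The means of ΔG cells went from 7.99 ± 0.08 to 7.06 ± 0.12 (SD, n = 3) with 1 allele deleted and, with both alleles deleted, from 7.99 ± 0.08 to 7.09 ± 0.08 (SD, n = 3). In all 4 clones every RA sample was below every ES sample, by differences of -0.83 to -1.04.

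Plac8 was at 2.15, 1.89 and 2.24 in heterozygous ΔPG ESCs and at 3.33, 3.24 and 3.35 under RA, higher by 1.22 (standard error 0.136, limma adjusted p = 0.000163). In homozygous ΔPG cells it rose by 0.96 (standard error 0.166, limma adjusted p = 0.000551), in heterozygous ΔG cells by 0.71 (standard error 0.129, limma adjusted p = 0.000407) and in homozygous ΔG cells by 0.73 (standard error 0.142, limma adjusted p = 0.00028). ES and RA samples did not overlap in any clone. All 6 extraembryonic endoderm markers also rose in each clone, with the median of their group means going from 3.22 to 3.34 in ES to 6.14 to 6.92 under RA, and the median of the 6 fibroblast markers went from 2.46 to 2.73 in ES to 3.6 to 3.82 under RA. Of the fibroblast markers, Col1a1 (2.46 to 2.69), Col1a2 (4.09 to 5.43) and Dcn (2.24 to 2.59) rose in each clone. Lum (0.35 to 0.68) and Postn (0.47 to 0.80) were higher in each clone but not called in all of them. Thy1 went the other way. It was called lower in heterozygous (-0.67) and homozygous (-0.53) ΔPG cells, and was at -0.37 and -0.03 in ΔG cells. The part of cells with endoderm or fibroblast markers in the rise of Plac8 and Hpse was not tested. In bulk samples, more cells of a type and more RNA per cell cannot be told apart.

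Hpse was at 2.72, 2.56 and 2.47 in heterozygous ΔPG ESCs and at 3.35, 3.45 and 3.24 under RA. It rose there by 0.76 with a standard error of 0.127 (limma adjusted p = 0.00148). In homozygous ΔG cells it went from 2.67, 3.04 and 2.72 to 3.35, 3.63 and 3.25, again without overlap, and rose by 0.60 (standard error 0.153, limma adjusted p = 0.00321). In heterozygous ΔG cells it was higher by 0.45 (limma adjusted p = 0.00852), under the limit of 0.5, and in homozygous ΔPG cells by 0.36 (95% interval -0.11 to 0.82). There, the ES samples were spread over 2.40, 2.57 and 3.15, and without homozygous ES replicate 3, the highest, Hpse was called (0.58). The Hpse call in homozygous ΔG cells was lost without homozygous RA replicate 2 (0.49). After quantile normalization the difference was 0.39 in heterozygous ΔPG, -0.02 in homozygous ΔPG and 0.26 in homozygous ΔG cells, and none of these was called. Lin54 differed by 0.25 in heterozygous ΔPG cells (limma adjusted p = 0.00818) and by -0.10 to -0.18 in the other clones. Its direction in heterozygous ΔPG cells turned with the GC trend removed (-0.10, limma adjusted p = 0.163). Cops4 differed by -0.24 to 0.09. For Coq2 the difference was -0.45 in heterozygous ΔPG cells (limma adjusted p = 0.0039), which was past 0.5 without heterozygous ES replicate 2 (-0.52) or heterozygous RA replicate 3 (-0.53).

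**Figure D4:**
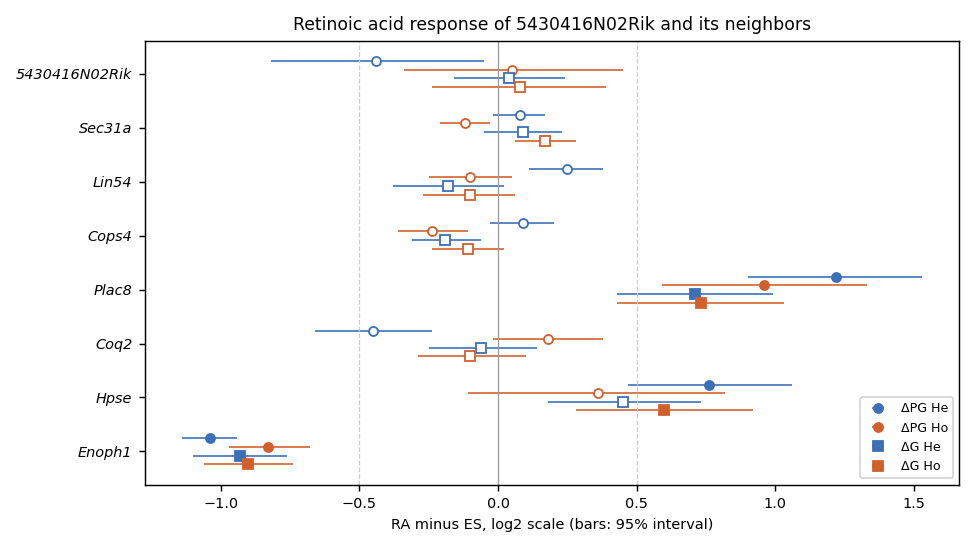
RA minus ES log2 difference of the 8 measured genes in each of the 4 clones (circles, ΔPG; squares, ΔG; blue, heterozygous; orange, homozygous; filled, called) with 95% intervals. Enoph1 lies between -1.04 and -0.83 and Plac8 between 0.71 and 1.22, and the other genes have at least 1 clone that was not called.

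An interaction term, fitted to all 12 samples of each table, compared the RA response between the genotypes. In ΔPG cells 1 of the 8 genes was called, Coq2, against 13.9% of all genes. Lin54 (-0.35), Cops4 (-0.32), Sec31a (-0.20) and Enoph1 (0.22) had limma adjusted p-values from 0.006 to 0.0481 and stayed under the limit of 0.5. Without the GC trend the direction of Lin54 turned (0.09, limma adjusted p = 0.531), Enoph1 was at 0.10 (limma adjusted p = 0.422), Cops4 at -0.21 (limma adjusted p = 0.0363) and Sec31a at -0.37 (limma adjusted p = 1.05e-05), all short of 0.5. As deposited, 5430416N02Rik was at 0.49 (limma adjusted p = 0.204). With the GC trend removed 5430416N02Rik was called (0.58, limma adjusted p = 0.0663) and Coq2 was not. Homozygous cells lack the gene body of 5430416N02Rik, so its term cannot show an RA response that depends on genotype. The term mirrors the RA difference of heterozygous ΔPG cells (-0.44, and -0.51 with the GC trend removed), beside 0.05 in homozygous ΔPG cells. In ΔG cells 0 of 8 were called against 2.38% (limma), and 0 of the 7 neighbors had an unadjusted p under 0.05.

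The fixed lists of genes that work with the neighbors were counted in the same comparisons. Of the 12 MuvB, DREAM and related partners of Lin54, 1 was called in homozygous ΔPG ESCs, Mybl2 (-0.50), and 0 in the other 3 genotype comparisons (limma; 3, 1 and 4 with an unadjusted p under 0.05 in ΔPG RA, ΔG ES and ΔG RA). Of 15 COPII genes, Sec24a (0.79), Tfg (0.63) and Sar1b (0.52) rose in ΔPG ESCs. Of 8 other COP9 signalosome genes, Cops2 (1.17) and Cops3 (0.57) rose there. Of 11 coenzyme Q genes, Coq10b (0.83) and Pdss1 (0.52) rose and Adck3 (-0.78) fell, of 7 methionine salvage and polyamine genes Mtap (0.61) rose and Mri1 (-0.59) fell, and of 12 heparan sulfate genes Ids (0.59) rose. The called shares of these 6 lists ran from 8.33% to 28.6%, beside 13.2% of all genes. Without the GC trend, 1 of these 12 called genes, Adck3 (-0.56), remained called. The medians of these lists in ΔPG ESCs lay between -0.26 for coenzyme Q and 0.28 for methionine salvage, beside 0.00 over all genes. Of the 4 stearoyl-CoA desaturase genes, the family to which Scd5 belongs, 0 were called in any genotype comparison (limma, 0 to 2 with an unadjusted p under 0.05). Outside ΔPG ESCs, the 1 gene of these 7 lists called between genotypes was Sulf2 (-0.68), a heparan sulfate sulfatase, in ΔPG cells under RA. In ΔPG RA, ΔG ES and ΔG RA, an unadjusted p under 0.05 was found for 5, 4 and 2 COPII genes, 0, 3 and 3 COP9 signalosome genes, 1, 1 and 2 coenzyme Q genes, 3, 1 and 2 methionine salvage genes and 3, 6 and 6 heparan sulfate genes.

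The same lists were counted between ES and RA in heterozygous ΔPG, homozygous ΔPG, heterozygous ΔG and homozygous ΔG cells, in which 31.6%, 27.8%, 29.5% and 29.2% of all genes were called. In this order, 4, 4, 7 and 6 of the 12 MuvB partners were called, 4, 3, 4 and 3 of the 15 COPII genes, 7, 3, 3 and 4 of the 11 coenzyme Q genes and 4, 2, 3 and 3 of the 7 methionine salvage and polyamine genes. The 8 COP9 signalosome genes gave 2, 0, 0 and 1 (limma, 8, 7, 6 and 5 with an unadjusted p under 0.05), and the 4 desaturase genes 0, 0, 0 and 1 (limma, 2, 3, 1 and 1 with an unadjusted p under 0.05). With the GC trend removed, only Coq3 and Coq6 of the 7 coenzyme Q genes remained called in heterozygous ΔPG cells. Over all lists 18 of 28 calls remained in these cells, and 19 of 20, 21 of 26 and 25 of 27 in the other clones. Mybl2, the B-Myb transcription factor that joins MuvB in proliferating cells, fell in each of the 4 clones (-2.15 to -1.58), and Tfdp2, a dimerization partner of E2F factors, rose in each (0.65 to 0.96). Of the methionine salvage and polyamine genes, in the pathway of Enoph1, Adi1 (-1.10 to -0.80) and Srm (-1.0 to -0.82) fell in each clone, and of the coenzyme Q genes Coq3 did (-0.83 to -0.51). Of the 12 heparan sulfate genes 7, 8, 9 and 9 were called (58.3%, 66.7%, 75% and 75%), and Ext1, Ndst1, Ndst2, Naglu and Sulf1 rose in all 4 and Sulf2 fell in all 4. The median of this list was 0.60 to 0.77, beside 0.01 to 0.04 over all genes. The fibroblast and extraembryonic endoderm markers that rose with RA moved with this list, and their part in it was not tested. Sec24b (0.92 to 1.32) and Sec24d (0.59 to 0.71), cargo adaptors of the COPII coat, rose in each clone, whereas Sec31a was not called.

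No gene followed 5430416N02Rik closely. Likeness was measured as the root mean square difference between mean-centered rlog values over the 12 samples of a table, taking the larger of the tables, among 20644 genes. The 5 nearest genes were Txnip (1.12), Slmo2, Thoc5, Ncam1 and Mtfp1 (1.14 each). A gene that did not vary at all would be at 1.06 (ΔPG) and 1.39 (ΔG), which are the deviations of 5430416N02Rik itself.

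The 4C-seq bait lies near the 5430416N02Rik promoter, which homozygous ΔPG cells lack, heterozygous ΔPG cells keep on 1 allele and ΔG cells keep on both. The HindIII site nearest upstream of the start lies 868 bp from it, at chr5:100859403-100859408 on NCBIM37. The sequence around it, with the site in capitals, is given on the minus strand (chr5:100859383-100859428), since fragments ligated at such sites are what the assay counts.
HindIII site: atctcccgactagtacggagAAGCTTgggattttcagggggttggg
The deposited regions have starts that fall on HindIII sites of GRCm38 and not of NCBIM37, so genes were placed on them by their RefSeq positions on GRCm38. On chromosome 5 each replicate had 56 significant regions, and the one that held 5430416N02Rik was the longest in both. It ran over 3517.5 kb in replicate 1 and 3347.9 kb in replicate 2, whereas the other regions of the chromosome had median lengths of 561.8 and 511.0 kb. The stretch shared by both replicates reached 1.53 Mb to one side of the start of 5430416N02Rik and 1.82 Mb to the other.

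All 8 placed genes, from Enoph1 to Hpse, lay inside this region in both replicates, and this was so for the whole gene and also when the positions were read on NCBIM37. The farthest start, that of Enoph1, lies 389.5 kb away, and the shared stretch reaches at least 1.53 Mb to each side. Their nearness to the bait alone thus places these genes inside it. The shared stretch held 65 RefSeq genes with 5430416N02Rik, and the regions carry no score, so the neighbors cannot be ranked by contact. Of the 24 genes of the shared stretch that were tested in ΔPG ESCs, 4 were called (16.7%). In the other shared stretches of chromosome 5 it was 34 of 287 (11.8%) and outside them 126 of 884 (14.3%). In ΔG ESCs, 0 of 25 were called in the stretch of the bait (limma, 2 with an unadjusted p under 0.05), 3 of 288 in the other shared stretches (1.04%) and 9 of 904 outside (0.996%). In ΔG cells under RA it was 0 of 25 (limma, 2 with an unadjusted p under 0.05), 3.12% and 3.1%, and in ΔPG cells under RA 0 of 24 (limma, 6 with an unadjusted p under 0.05), 1.05% and 1.13%. These shares are descriptions and were not tested.

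**Figure D5:**
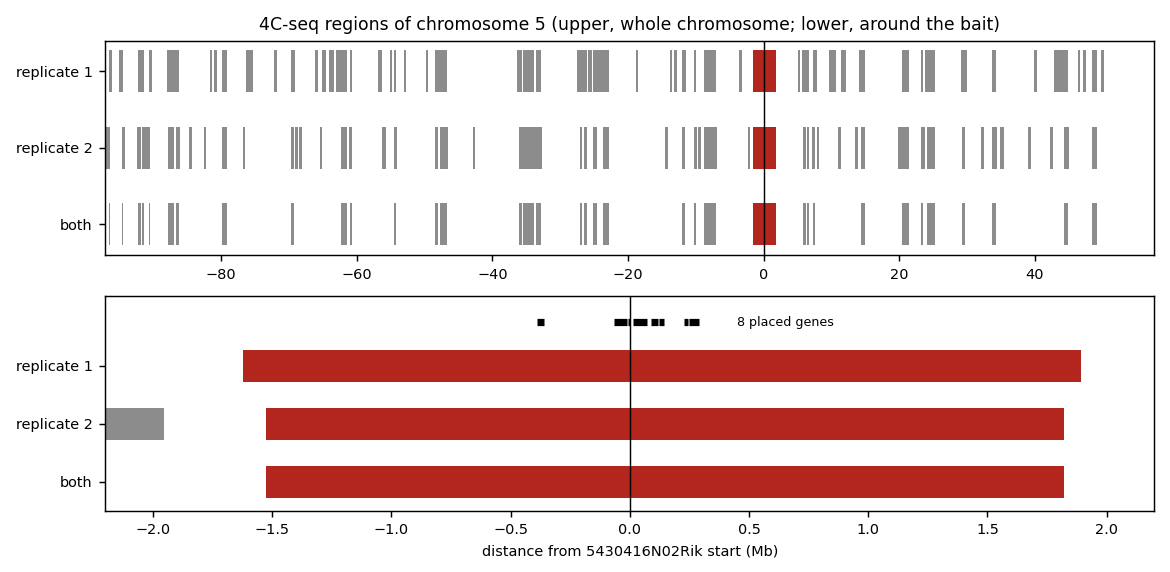
Significant 4C-seq regions of chromosome 5 in replicates 1 and 2 and the stretches shared by both, as distance from the 5430416N02Rik start in Mb, over the whole chromosome (upper) and around the bait (lower, with the 8 placed genes as black bars). The region that holds the bait (red) reaches 1.62 Mb to the left and 1.89 Mb to the right in replicate 1 and 1.53 and 1.82 Mb in replicate 2, and covers all 8 genes; other regions are grey.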

How the data were processed

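The data were RNA-seq of 24 samples and 4C-seq of 2 replicates. The authors aligned stranded reads from ribosomal RNA-depleted RNA with TopHat2 2.1.0 (NCBI37/mm9), removed duplicates with Picard, and used HTSeq 0.6.0 to count by strand. The authors deposited log2-scale values made with DESeq2 1.14.1 (its regularized log, rlog) in separate tables for the 12 ΔPG and the 12 ΔG samples. Of the 33924 genes listed, 21979 (ΔPG) and 22048 (ΔG) varied. The deposited 4C-seq files give a start and an end for every significant region (HindIII and DpnII, BWA 0.7.15 per the labels) and no score. Of their 112 starts on chromosome 5, 14 lay within 6 bp of a HindIII site of NCBIM37 as they stand, and 109 of 110 after the shift between GRCm38 and NCBIM37 gene positions. Depth is unknown, so no counting interval is given.

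limma 3.58.1 (lmFit, eBayes with trend, R 4.3.3) took the 6 samples that were compared, or all 12 for the interaction, over all varying genes with Benjamini-Hochberg adjustment. Scripts used Python 3.11.15, and the fits were tested on simulated data. The GC correction subtracted each sample's lowess curve against exonic GC content. The named genes are the 9 listed symbols, other genes within 1 Mb called between genotypes, called members of fixed partner lists, the 5 genes most alike, and Trp53. The members, lists and limits were chosen with earlier results of these data known. Alternatives were all 12 samples, no trend, quantile normalization, a mean rlog of at least 3, other limits, a replicate block, GC correction and leaving out each sample. Replicate numbers did not pair the samples (correlations of deviations -0.0255 to 0.0855). The authors' comparison tables, RIP-seq and Capture-C were not used here.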

Additional observations from a re-analysis of the deposited data

Results flagged for a closer look

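The genotype difference of Coq2 in ΔPG cells under RA differed from that in ES, by 0.63 in the interaction test (limma adjusted p = 0.00258). The heterozygous and homozygous means were 7.05 and 6.55 in ES and 6.60 and 6.73 under RA. With the GC trend removed the interaction was 0.44 (limma adjusted p = 0.0114).

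Sec31a had differences of opposite sign in the 2 lines, none of them called. Under RA all 3 homozygous ΔG samples were above the heterozygous ones (0.21), whereas all 3 homozygous ΔPG samples were below theirs (-0.10, limma adjusted p = 0.191). Between ES and RA it was higher in all homozygous ΔG samples under RA (0.17) and lower in all homozygous ΔPG samples under RA (-0.12), but this last direction turned after quantile normalization (0.06). The difference between the lines was not tested, since the tables were normalized separately, and all 4 values are under the limit of 0.5. Groups of 3 samples are too small to look for single outlying samples.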

How the results depend on the processing

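The fall of 5430416N02Rik between genotypes is set by the deletion of its gene body. 5430416N02Rik was called between genotypes under all 15 alternatives in each of the 4 comparisons, from -2.38 to -2.26 in ΔPG ES, -1.99 to -1.67 in ΔPG RA, -2.84 to -2.71 in ΔG ES and -2.88 to -2.66 in ΔG RA. Its difference with RA in heterozygous ΔPG cells was called after quantile normalization (-0.78), with the limit on size dropped (-0.44), with the GC trend removed with or without the replicate block (-0.51 in each), and without heterozygous RA replicate 3 (-0.58). Without the other samples it was not called (-0.48 to -0.26). The 2 neighbors called in ΔPG ES became 1 after quantile normalization or with limits of 0.05 (adjusted p) and 1.5 (fold change), 4 with an adjusted p under 0.1 alone, 0 with the GC trend removed with or without the replicate block, and 1 to 2 without 1 sample, where the loss was that of Coq2. With an adjusted p under 0.1 alone, the counts were 1 in ΔPG RA, 1 in ΔG RA, 5, 4, 4 and 4 for RA in heterozygous ΔPG, homozygous ΔPG, heterozygous ΔG and homozygous ΔG cells, and 5 in the ΔPG interaction. At a mean rlog of at least 3, or with the GC trend removed with or without the replicate block, Plac8 dropped out, and Hpse in ΔPG, which left 1 neighbor called with RA in each of heterozygous ΔPG, homozygous ΔPG and heterozygous ΔG cells. In the last, quantile normalization also left 1, Plac8 being at 0.48. The replicate block without a GC correction changed no count. No value called in the fit of the values as deposited, at both limits, changed sign. Some values called only with the limit on size dropped did. With the GC trend removed, Lin54 turned with RA in heterozygous ΔPG cells (0.25 to -0.10) and in the ΔPG interaction (-0.35 to 0.09). After quantile normalization Sec31a turned with RA in homozygous ΔPG cells (-0.12 to 0.06). The 8 genes in a 4C region of both replicates remained 8 under both alternatives, which their nearness to the bait sets. The 4 genes called in ΔPG ES were the same within 500 kb, 1 Mb and 2 Mb. They were 22.2%, 21.1% and 14.8% of the genes tested in these windows, beside 13.2% of all genes. The clones and the unknown depth limit what these comparisons can show.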
